A study of Mus musculus with 6 samples.

Results

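The RAS-RAF-MEK-ERK cascade is represented here by 7 genes, taken by their symbols from the deposited tables, which list 25805 genes. They are the RAS genes Hras and Nras, the RAF genes Araf and Braf, the MEK genes Map2k1 and Map2k2, and Mapk3, which encodes ERK1. All 7 were listed once and all 7 passed the filter on low values. Other RAS, RAF and ERK genes were not analysed here. The libraries are RNA-seq of mouse kidney after ischaemia-reperfusion injury (IRI), a model in which the organ's blood supply is interrupted and then let back. The CXCR2 knockout IRI group and the wild-type (WT) IRI group held 3 libraries each, so both groups carried the injury. Uninjured kidneys were not analysed here. The titles of the second group read IRI alone, without a genotype, and that group is taken as WT here. The labels give no strain, age, sex, time after reperfusion or surgical detail, and they say neither how the knockout was made, nor in which cells, nor whether each library came from a separate animal. The p-values therefore measure the spread between these libraries, which may be technical. CXCR2 is a G protein-coupled chemokine receptor best known from neutrophils, and the study's title places ERK1/2 downstream of it in injured tubules.

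RAS proteins are small GTPases at the cell membrane that growth factor and chemokine receptors switch on by loading them with GTP. Active RAS recruits RAF kinases, RAF phosphorylates the MEK kinases, and MEK phosphorylates ERK, which then acts on kinases and transcription factors. In the kidney this pathway is known for its activation in tubule cells after ischaemia. The switch at each step is nucleotide exchange or phosphorylation of protein that is already made. The values below are transcript levels and measure neither.

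The group means of all 7 genes lay close together. None passed the test, the 7 log2 fold changes of knockout against WT lay between -0.088 and 0.23, and the 95% intervals reached no further than a 0.670-fold and a 1.52-fold level. The RAF genes had the highest 2 fold changes, and Braf was the one member whose libraries did not overlap between groups, by a narrow margin that was lost under another scaling. Knockout library 1 was the highest of the 6 libraries for Braf and Map2k1 and the lowest for Hras and, by a narrow margin, for Mapk3.

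The unit throughout is the normalized count, which is the number of reads of a gene divided by 1 size factor per library, as deposited. A fold change is the difference of group means of log2(normalized count + 1), tested with limma over 21721 genes with Benjamini-Hochberg adjustment and a threshold of 0.05. The libraries held 15518083 to 20356601 reads. The 7 genes together took 10596 to 13825 reads per library, which is 0.0610% to 0.0763% of all reads, and a single member had between 490 and 3873 reads. Counting error was thus a few percent of each value. The knockout libraries were unlike one another. On the first principal component of 12841 genes, which held 48.3% of the variance, knockout library 1 stood at -86.0 and the other 5 libraries between 4.16 and 27.3. Fat cell markers (8 genes) summed to 21468 normalized counts in knockout library 1, against 91.6 to 1074 in the other 5 libraries, neutrophil markers (9 genes) to 4358 against 359 to 1205, and erythrocyte markers (5 genes) to 13289 against 656 to 2771. Knockout library 3 stood apart on the second component (27.3% of the variance), at -57.4 where the other 5 libraries lay between -12.8 and 33.6. In it collecting duct markers (5 genes) summed to 2132, against 8385 to 18722 in the other 5 libraries, and thick limb and distal tubule markers (6 genes) to 22249, against 40061 to 85432. In bulk tissue, fewer cells of a type and less RNA per cell cannot be told apart. Cxcr2 itself had 98.0, 36.8 and 56.6 normalized counts in knockout libraries 1 to 3 and 15.9, 88.8 and 56.9 in WT libraries 1 to 3, so the libraries labelled knockout did not have less of it (log2 fold change 0.43, limma adjusted p = 0.841, with an SE of 0.64). The deleted part of Cxcr2 is not named in the labels, and counts over the whole gene cannot check a deletion of a part. Every direction below is one between libraries titled knockout and libraries titled IRI alone, which are taken as WT. No gene of the proximal tubule, thick limb, collecting duct or podocyte lists was at 0 in any library.

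The RAF genes lie at Araf on chromosome X from 20797814 to 20860519, plus strand, and Braf on chromosome 6 from 39603237 to 39725463, minus strand, in mm10. Their promoters are shown because the RAF genes had the 2 highest fold changes of the cascade, neither of which passed the test. A further reason is that the pair differs in what the start region holds. The choice was thus made with these values and matches known, and a link between promoter and fold change was not tested. Each sequence is RefSeq's on GRCm38.p6 and runs from 250 bases before to 50 bases after the start site, 5′ to 3′ along the gene. Capitals mark CCAAT boxes on either strand in Araf and cyclic AMP response elements (CRE, TGACGTCA, which reads the same on both strands) in Braf.
Araf promoter, chrX:20848293-20848592, plus strand: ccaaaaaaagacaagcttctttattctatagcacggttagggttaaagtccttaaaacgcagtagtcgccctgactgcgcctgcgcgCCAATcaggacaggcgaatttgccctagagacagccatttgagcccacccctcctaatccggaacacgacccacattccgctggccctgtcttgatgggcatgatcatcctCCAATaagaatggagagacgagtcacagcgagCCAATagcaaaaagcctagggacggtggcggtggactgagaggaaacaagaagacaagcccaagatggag
Braf promoter, chr6:39725414-39725713, minus strand: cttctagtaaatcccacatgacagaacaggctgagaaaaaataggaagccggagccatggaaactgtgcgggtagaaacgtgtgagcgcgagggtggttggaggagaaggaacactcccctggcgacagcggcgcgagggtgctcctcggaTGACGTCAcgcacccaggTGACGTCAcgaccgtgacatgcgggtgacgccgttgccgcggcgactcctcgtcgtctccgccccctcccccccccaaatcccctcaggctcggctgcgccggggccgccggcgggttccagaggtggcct

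The Braf window held 2 CRE matches, and 1.79% of the 32851 RefSeq promoter windows of the same length held at least 1. The Araf window held 3 CCAAT boxes (CCAAT, both strands), a motif found in 37.4% of windows, and no GC box (GGGCGG, both strands), which 35.7% of windows held. Among the 6 members with a promoter in the table, the GC box was in 5 and the CRE in Braf alone. No member's window held the AP-1 element TGANTCA, the ETS element CCGGAAGT or the TATA box TATAAA, searched on both strands. They were in 7.81%, 3.89% and 13.6% of windows. For NF-kB only 1 fixed sequence without variable letters was searched, on both strands. No member's window held it, and 0.155% of windows did. Other forms of the NF-kB, ETS, AP-1 and TATA elements were not searched, so their absence cannot be stated. All motif counts here are matches of letters in 300 bases and not measured binding. The Araf window starts inside the gene model of the files, which reaches further upstream.

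The RAS genes came first in the cascade. Hras and Nras encode closely related GTPases that differ mainly in the C-terminal tail that takes lipid anchors. Hras (chromosome 7 from 141189105 to 141194005, minus strand) had 1318, 1714 and 1596 normalized counts in knockout libraries 1 to 3 and 1621, 1492 and 1662 in WT libraries 1 to 3. The lowest value of all was knockout library 1 and the highest knockout library 2, so the WT libraries lay inside the knockout range. The means were 1543 ± 203 in knockout and 1592 ± 88.5 in WT (SD, n = 3 each), a log2 fold change of -0.052 (SE 0.16, 95% interval -0.41 to 0.31, limma adjusted p = 0.931). That value was 0.057 without knockout library 1.

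Nras (chromosome 3 from 103058285 to 103067914, plus strand) was the least uniform member. It had 1253, 925 and 1608 normalized counts in knockout libraries 1 to 3 and 1273, 1468 and 1196 in WT libraries 1 to 3. Knockout library 2 was the lowest and knockout library 3 the highest of the 6, a 1.74-fold range within 1 group. The means were 1262 ± 342 in knockout and 1312 ± 141 in WT (SD, n = 3 each). The log2 fold change was -0.088 (SE 0.22, 95% interval -0.58 to 0.40, limma adjusted p = 0.913), with 0.12 without knockout library 2 and -0.28 without knockout library 3. The 2 RAS genes did not follow each other, since in knockout library 2 Nras was at its lowest and Hras at its highest.

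The RAF kinases receive the signal from RAS. ARAF is known as the RAF kinase of weakest catalytic activity and BRAF as the strongest activator of MEK. Braf was the least abundant member, with 767, 630 and 659 normalized counts in knockout libraries 1 to 3 and 561, 629 and 557 in WT libraries 1 to 3. The groups did not overlap, but knockout library 2 (630.28) and WT library 2 (629.15) differed by about 1 normalized count, and their 95% Poisson intervals, which cover counting error only, were 583 to 681 and 583 to 678. The means were 685 ± 72.4 in knockout and 582 ± 40.4 in WT (SD, n = 3 each), a log2 fold change of 0.23 (SE 0.16, 95% interval -0.14 to 0.60, limma adjusted p = 0.644). It was 0.15 without knockout library 1. With libraries scaled by total reads the groups overlapped, with 633 in knockout library 3 below 676 in WT library 2, and the log2 fold change was 0.14. Groups did not overlap, with knockout above WT, for 8.27% of the 21721 genes, and in either direction for 17.7%. A count of 1 in 7 beside these shares is not a result about the members. No member had every knockout library below every WT library, as 9.43% of genes did, and 4 of 7 had a log2 fold change above 0, as 49.9% of genes did.

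Araf had 1798, 2262 and 2191 normalized counts in knockout libraries 1 to 3 and 1828, 1634 and 2020 in WT libraries 1 to 3. Knockout libraries 2 and 3 were above all WT libraries, while knockout library 1 lay among them. The means were 2084 ± 250 in knockout and 1828 ± 193 in WT (SD, n = 3 each), a log2 fold change of 0.19 (SE 0.16, 95% interval -0.19 to 0.56, limma adjusted p = 0.719), which was 0.29 without knockout library 1 and 0.11 without WT library 2. Summed over both RAF genes, the level was 2565, 2892 and 2850 in knockout libraries 1 to 3 and 2389, 2263 and 2578 in WT libraries 1 to 3, and these groups overlapped. Leaving out knockout library 1 thus lowered the fold change of Braf and raised that of Araf.

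The MEK kinases phosphorylate ERK and have few other known substrates. Map2k1, which encodes MEK1, lies on chromosome 9 from 64185770 to 64253631, minus strand. It had 1630, 1081 and 1355 normalized counts in knockout libraries 1 to 3 and 1179, 1231 and 1286 in WT libraries 1 to 3. The WT libraries were close together and the knockout libraries lay on both sides of them, with SDs of 274 in knockout and 53.5 in WT. The log2 fold change was 0.12 (SE 0.18, 95% interval -0.29 to 0.53, limma adjusted p = 0.843), which was -0.024 without knockout library 1 and 0.27 without knockout library 2.

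Map2k2, which encodes MEK2 (chromosome 10 from 81105915 to 81133975, plus strand), had the highest normalized counts of the cascade. They were 3198, 3702 and 3394 in knockout libraries 1 to 3 and 3237, 3072 and 4179 in WT libraries 1 to 3. Here the spread was on the WT side, with WT library 3 the highest of all and WT library 2 the lowest. The means were 3431 ± 254 in knockout and 3496 ± 597 in WT (SD, n = 3 each), a log2 fold change of -0.016 (SE 0.17, 95% interval -0.41 to 0.38, limma adjusted p = 0.981). It was 0.12 without WT library 3, 0.033 without knockout library 1 and -0.10 without WT library 2. The sum of both MEK genes was 4827, 4784 and 4750 in knockout libraries 1 to 3, a spread of 39.0 (SD), although each gene alone varied by 254 or more. In WT libraries 1 to 3 the sum was 4416, 4303 and 5464.

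Mapk3 encodes ERK1, the kinase at the end of the cascade that MEK phosphorylates on a threonine and a tyrosine. It lies on chromosome 7 from 126759601 to 126765819, plus strand, on the same chromosome as Hras. It had 1839, 2358 and 2488 normalized counts in knockout libraries 1 to 3 and 1857, 2019 and 2576 in WT libraries 1 to 3. Both groups ran over nearly the same range, with SDs of 344 in knockout and 377 in WT. The log2 fold change was 0.053 (SE 0.19, 95% interval -0.38 to 0.48, limma adjusted p = 0.944). It changed sign with total-read scaling (-0.041) and without WT library 1 (-0.045) or knockout library 3 (-0.032), and it was 0.19 without WT library 3 or without knockout library 1, so no direction can be given.

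**Figure D1:**
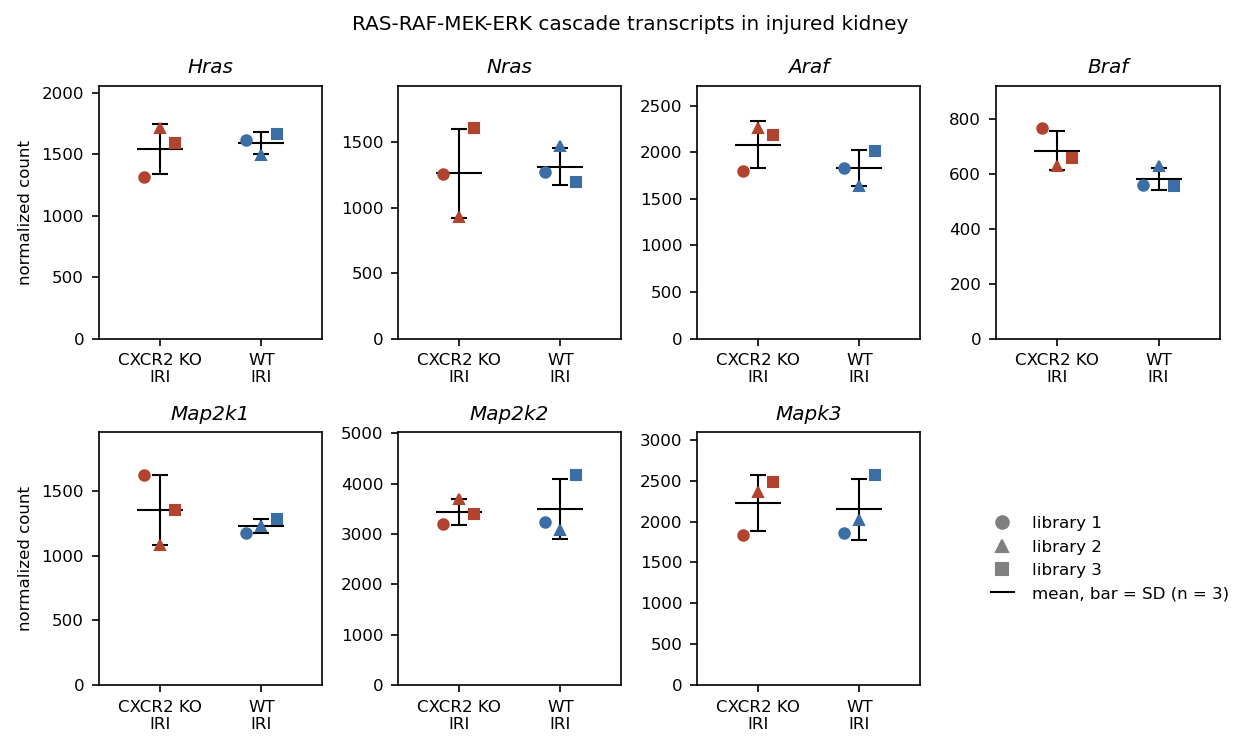
Normalized count (vertical axes, from 0) of the 7 cascade genes in 3 knockout libraries (left, red) and 3 WT libraries (right, blue) of injured kidney, with marker shape for the library number and black bars for the mean and SD. The groups overlap in every panel but Braf, where knockout library 2 and WT library 2 are almost level at 630.28 and 629.15.

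**Figure D2:**
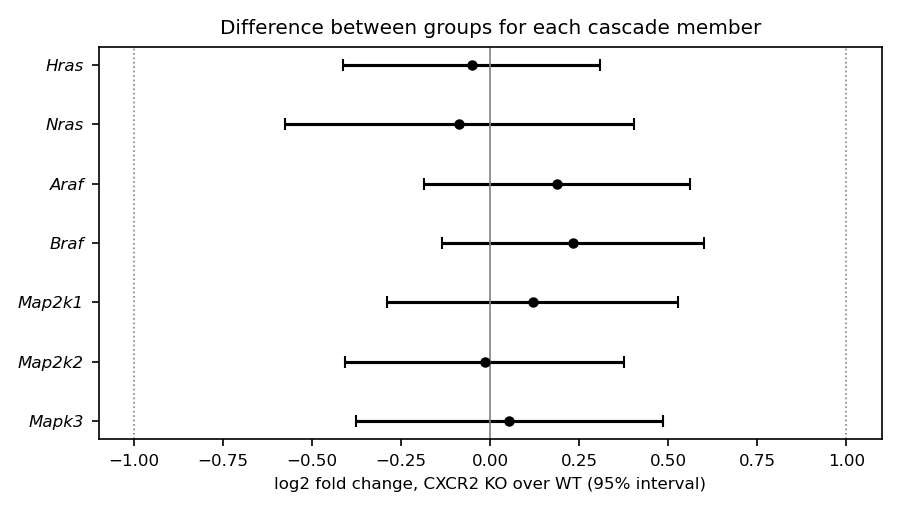
log2 fold change of knockout over WT (horizontal axis) with its 95% interval from limma for each member, with dotted lines at a 2-fold difference. Every interval includes 0, and the widest, that of Nras, runs from -0.58 to 0.40.

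Against all genes, 0 of 7 members passed limma's threshold, where 1 of 21721 genes did (0.0046%), and 0 of 7 had an unadjusted p under 0.05, where 10.1% of genes did. With DESeq2 0 of 7 passed, where 316 of 16222 genes did (1.95%), and with edgeR 0 of 7, where 1 of 15915 did (0.00628%). The members' median absolute log2 fold change was 0.088, and it was 0.24 for the 12841 genes averaging 50 normalized counts or more. Their within-group SD of log2 values ran from 0.13 for Braf to 0.30 for Nras with a median of 0.18, beside a median of 0.28 over those genes. The SE of a member's fold change was 0.16 to 0.22, beside a median of 0.23 over the same genes. Those genes were not matched to the members by level. Braf, the member of lowest count, averaged 685 normalized counts in knockout and 582 in WT. The part of level in these differences was not tested. A p that misses the threshold does not show that the groups are alike, and the intervals above leave room for differences of up to 1.52-fold.

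Single libraries departed from the WT mean in different genes. In knockout library 1, Braf and Map2k1 stood 0.40 above the WT mean on the log2 scale, while Hras stood at -0.27 and Mapk3 at -0.21, the last almost level with WT library 1 at -0.20. Knockout library 1 is also the library with the high fat cell, neutrophil and erythrocyte marker sums given above, and their part in these values was not tested. In knockout library 2 the extremes were Nras at -0.50 and Araf at 0.31. In knockout library 3, 6 of 7 members were above the WT mean, led by Nras at 0.30, with Map2k2 at -0.029. Among WT libraries the farthest values were those of Mapk3 and Map2k2 in library 3, both at 0.27. The median absolute departure over the 7 genes was 0.21, 0.15 and 0.18 in knockout libraries 1 to 3. The median over 12841 genes, not matched by level, was 0.43, 0.23 and 0.26.

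**Figure D3:**
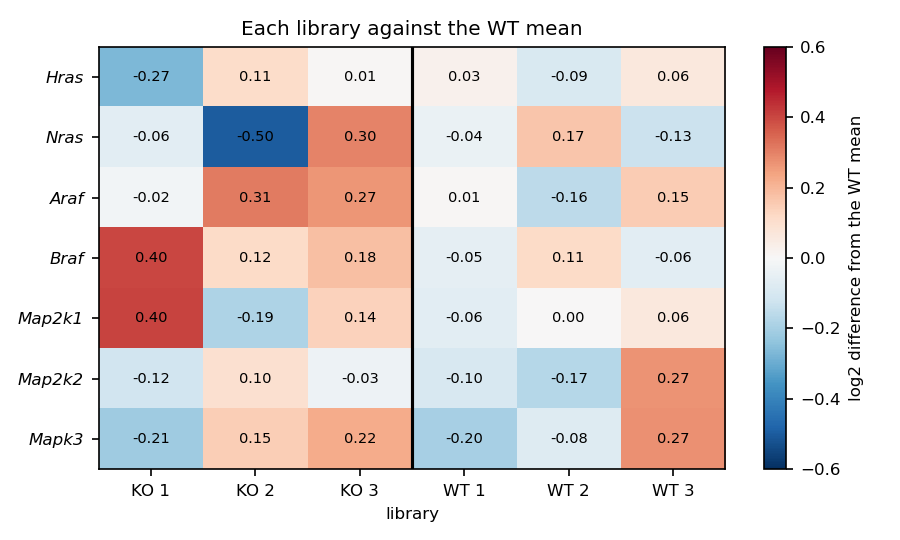
log2 difference of each library (columns, knockout left of the line) from the WT mean for each member (rows), coloured from blue for lower to red for higher. Knockout library 1 has Braf and Map2k1 at 0.40 and Hras at -0.27, and knockout library 2 has Nras at -0.50.

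Levels can be compared between genes only per length. Divided by the length of the gene model in the files, which equals the merged exon length in GENCODE M21 for all 7, Mapk3 was the most abundant, with 987 ± 152 normalized counts per kilobase in knockout and 953 ± 167 in WT (SD, n = 3 each). Map2k2 followed with 606 ± 44.9 in knockout and 617 ± 105 in WT, then Hras with 413 ± 54.5 and 426 ± 23.7, and Map2k1 with 400 ± 80.8 and 363 ± 15.8. Araf had 319 ± 38.2 in knockout and 279 ± 29.5 in WT, and Nras 237 ± 64.1 and 246 ± 26.4. Braf was the lowest at 49.4 ± 5.22 in knockout and 42.0 ± 2.92 in WT. Over the 6 libraries the ranges of Mapk3 and Map2k2, of Map2k2 and Hras, and of Nras and Braf did not overlap. Those of Hras and Map2k1, of Map2k1 and Araf, and of Araf and Nras did, although the gene placed higher was above its neighbour in 5 of 6 libraries in each of these pairs. The gene model of Braf is 13862 bases and that of Mapk3 2257, and merged models that hold rarely used exons lower a value per kilobase.

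The ratio of the 2 genes of a tier does not depend on the scaling of a library. Araf exceeded Braf in every library, by 2.34, 3.59 and 3.33 times in normalized counts in knockout libraries 1 to 3 and by 3.26, 2.60 and 3.62 times in WT libraries 1 to 3. Per kilobase Araf exceeded Braf by 4.96 to 7.68 times. Map2k1 had 0.510, 0.292 and 0.399 times the normalized count of Map2k2 in knockout libraries 1 to 3 and 0.364, 0.401 and 0.308 times in WT libraries 1 to 3. The ratio of Hras to Nras was 1.05, 1.85 and 0.993 in knockout libraries 1 to 3 and 1.27, 1.02 and 1.39 in WT libraries 1 to 3. The mean log2 ratio of knockout minus WT was 0.035 for Hras to Nras, -0.044 for Araf to Braf and 0.13 for Map2k1 to Map2k2. In exact two-sided permutation tests these had p = 0.9, p = 0.8 and p = 0.7 (adjusted p = 0.9 over the 3 ratios), where 3 against 3 libraries cannot go below 0.1. The sign of each changed when 1 library was left out. Araf to Braf was 0.14 without knockout library 1 and 0.061 without WT library 3, Map2k1 to Map2k2 was -0.058 without knockout library 1, and Hras to Nras was -0.25 without knockout library 2 and -0.094 without WT library 2.

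**Figure D4:**
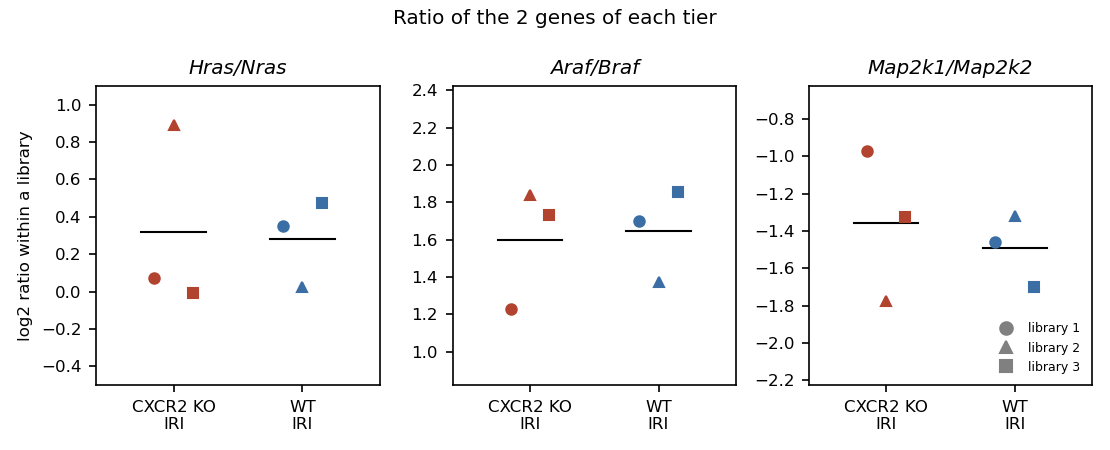
log2 ratio of the 2 genes of a tier within each library (vertical axes, which do not start at 0 and span the same width), with knockout left and WT right and lines at the group means. In each panel the groups overlap, and the knockout values spread more widely than the WT values.

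Some members share sequence with other genes, and how the counting treated such reads is not given. No stretch of at least 100 bases at 95% identity or more was found for Hras, Map2k1, Map2k2 or Mapk3 in the transcripts of any other gene, and no member shared such a stretch with another member. Nras shared stretches of up to 172 bases with 3 genes, which is 3.23% of its length. The longest is with Slc3a2, which had 8423, 4088 and 4407 normalized counts in knockout libraries 1 to 3 and 4548, 3935 and 4032 in WT libraries 1 to 3, so it was more abundant than Nras in every library. Reads that Nras could gain from it were not measured. Braf shared a stretch of 205 bases, 1.48% of its length, with a gene that has no deposited values, and a stretch of 146 bases with Ndufb2. Araf shared stretches of 121 to 148 bases, at most 2.26% of its length, with 77 genes, Slc3a2 among them. The stretch shared with Ndufb2 is as long as the overlap of Braf with that gene on the opposite strand, 146 exonic bases or 1.05% of the exons of Braf. Araf overlaps Syn1 by 9. The use of strand in counting is not given in the sources used here, so those reads cannot be assigned.

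By pattern over the 6 libraries, the gene most like Mapk3 was Vmac (Pearson r = 0.993), followed by Vars2 and L3mbtl2. Braf was most like Med12 (0.998), Med26 and Ctu2, and Araf most like Mkks (0.998), Slc35d1 and Thap7. Map2k1 was most like Sgms1 (0.995), Strn3 and Gapvd1, Map2k2 most like Jtb (0.983), Aph1a and Chst7, Hras most like Primpol (0.992), Rpap2 and Apopt1, and Nras most like Zfp790 (0.991), Smchd1 and Sinhcaf. Each is the best of 12142 genes over 6 points that share libraries and depth, so each value is a description of these libraries alone. No member appeared in the list of another.

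The genes that feed, hold and read the cascade were described from 7 lists of 81 genes. In limma 0 of 81 passed the threshold. At an unadjusted p under 0.05 there were 11 (13.6%, beside 10.1% of all genes), 4 with knockout above WT (3.94% of all genes) and 7 below (6.14%). The median log2 fold change of the 81 genes was 0.0054, beside -0.0010 over all genes tested. DESeq2 called 1 of the 81, Rasgrp2, where it called 1.95% of all genes it tested. The groups did not overlap for 10 of the 81 genes (12.3%), beside 17.7% of all genes.

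The list of adaptors and RAS exchange factors had a median log2 fold change of 0.18, with 11 of 14 above 0. Only its exchange factors load GTP, so this count is not one of RAS-loading enzymes. Relative to the WT mean the list's median stood at 0.44, -0.028 and 0.064 in knockout libraries 1 to 3 and -0.11, 0.079 and -0.094 in WT libraries 1 to 3, so it was high in knockout library 1 alone. Rasgrp2, an exchange factor of platelets and other blood cells that acts mainly on RAP1, had 129, 275 and 103 normalized counts in knockout libraries 1 to 3 and 417, 644 and 361 in WT libraries 1 to 3. Every knockout library was below every WT library. The log2 fold change was -1.57 (SE 0.39), with a limma adjusted p = 0.377 and a DESeq2 adjusted p = 0.0249, and leaving out single libraries gave values between -1.98 and -1.28. Rasgrp1, an exchange factor of lymphocytes, lay the other way, with 119, 51.3 and 44.3 in knockout libraries 1 to 3 and 25.9, 34.2 and 26.2 in WT libraries 1 to 3. Its log2 fold change was 1.16 (limma adjusted p = 0.455, with an SE of 0.45), and 0.72 without knockout library 1. Gab1, a docking protein of receptor tyrosine kinases, had one of 0.43 (0.15 without knockout library 1, limma adjusted p = 0.591). The core adaptor Grb2 (-0.079) and the exchange factor Sos1 (0.20), both named after their values were seen, did not pass either.

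The RAS GTPase activators, which switch RAS off, had a median of 0.11 and no member at an unadjusted p under 0.05. Relative to the WT mean they too were highest in knockout library 1, with 0.26, -0.066 and 0.011 in knockout libraries 1 to 3 and 0.10, -0.039 and -0.12 in WT libraries 1 to 3. The neurofibromin gene Nf1 had 901, 635 and 726 normalized counts in knockout libraries 1 to 3 and 629, 676 and 693 in WT libraries 1 to 3 (log2 fold change 0.16, SE 0.18, with 0.029 without knockout library 1). Rasal1 averaged 62.3 normalized counts in knockout and 23.4 in WT (log2 fold change 0.99, with -0.028 without knockout library 2), and Rasal3 47.8 in knockout and 57.8 in WT (-0.26, with -0.12 without WT library 2). The list of RAS lipid processing had a median of -0.0042. Its palmitoyltransferase gene Zdhhc9, whose enzyme is known to modify HRAS and NRAS, had 1632, 1598 and 2146 normalized counts in knockout libraries 1 to 3 and 1301, 1043 and 1497 in WT libraries 1 to 3. The groups did not overlap, and the log2 fold change was 0.49 (limma adjusted p = 0.463, with an SE of 0.19). Pde6d (-0.34, with -0.014 without knockout library 1), which carries prenylated proteins, and the methyltransferase gene Icmt (-0.16) followed by p.

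Scaffolds and RAF partners had a median of -0.058, with 6 of 17 above 0. The beta-arrestin gene Arrb1, whose protein binds chemokine and other G protein-coupled receptors and can hold RAF, MEK and ERK together, had 1083, 981 and 997 normalized counts in knockout libraries 1 to 3 and 1520, 1961 and 1411 in WT libraries 1 to 3. Its groups stood apart, with a log2 difference of -0.66 (limma adjusted p = 0.377, DESeq2 adjusted p = 0.0726, with an SE of 0.17). Leaving out single libraries gave values between -0.76 and -0.52. Cnksr3 (0.57, with 0.32 without knockout library 1), a scaffold known from sodium transport in the distal nephron, and Lamtor2 (-0.42), a subunit of the late endosomal complex that holds MEK1 and ERK1, also had an unadjusted p under 0.05.

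Among ERK effectors, with a median of 0.0025 over 9 genes, Elk3 was the one at an unadjusted p under 0.05. It encodes an ETS-family transcription factor phosphorylated by ERK, and it had 356, 376 and 271 normalized counts in knockout libraries 1 to 3 and 540, 766 and 502 in WT libraries 1 to 3. The groups did not overlap and the log2 fold change was -0.84 (limma adjusted p = 0.383, DESeq2 adjusted p = 0.0729, with an SE of 0.23). The related Elk1 (-0.15) and Elk4 (-0.087) both changed sign without knockout library 2, to 0.017 for Elk1 and 0.072 for Elk4. The 10 feedback inhibitors, among them Sprouty and Spred proteins that restrain RAS and RAF, had a median of -0.061, and Spred3 (-0.71, SE 0.26, limma adjusted p = 0.445) was the one member at an unadjusted p under 0.05, ahead of Spred2 (0.45) and Spry2 (-0.35). With single libraries left out, Spred2 ran from 0.28 without WT library 1 to 0.64 without knockout library 2, and Spry2 from -0.58 without knockout library 1 to -0.14 without knockout library 3. Relative to the WT mean this list stood at 0.40, -0.37 and -0.26 in knockout libraries 1 to 3 and -0.33, 0.14 and 0.14 in WT libraries 1 to 3.

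The other MAPK modules had a median of -0.064 over 13 genes. Within the p38 family, Mapk14 (p38 alpha) had 2807, 2378 and 2434 normalized counts in knockout libraries 1 to 3 and 1800, 1743 and 2016 in WT libraries 1 to 3, a log2 fold change of 0.45 (limma adjusted p = 0.423, with an SE of 0.15). Mapk11 (p38 beta) had 155, 218 and 178 in knockout and 350, 340 and 281 in WT, a log2 fold change of -0.82 (limma adjusted p = 0.383, with an SE of 0.23). The groups overlapped for neither gene, and neither passed the test. Mapk12 (p38 gamma) had a log2 fold change of -0.72 (limma adjusted p = 0.453, with an SE of 0.28), and its groups overlapped. It shares a stretch of 133 bases with Araf. Mapk13 (p38 delta), named after its value was seen, had one of -0.27 (limma adjusted p = 0.735).

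**Figure D5:**
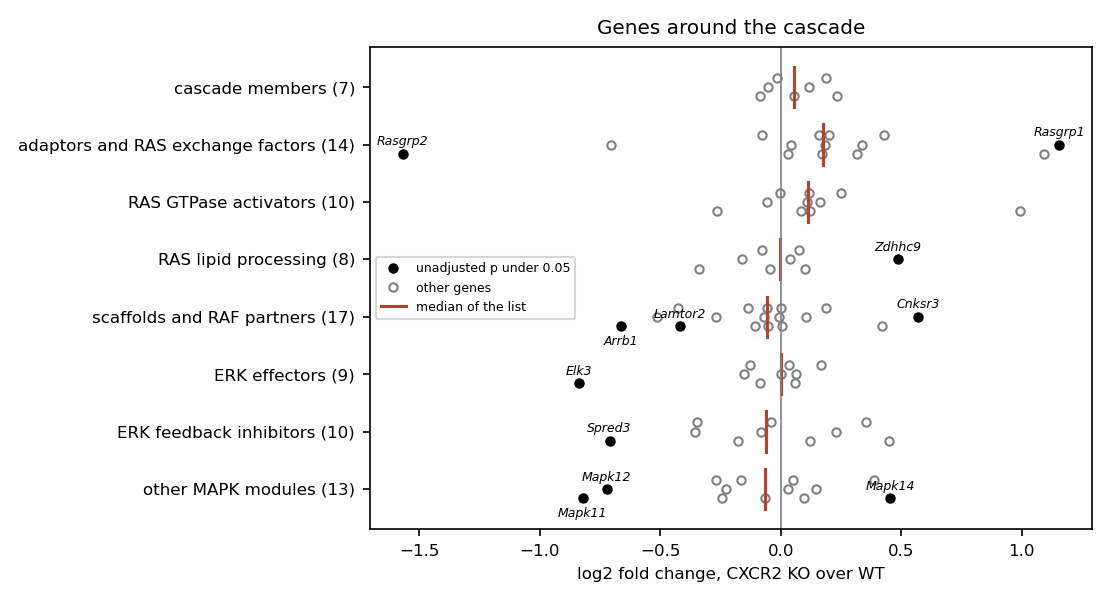
log2 fold change of knockout over WT (horizontal axis) for the 7 members and for 7 lists of genes around them (rows, with the number of genes), where filled points have an unadjusted p under 0.05 and red lines are medians. The members lie between -0.088 and 0.23, while Rasgrp2 is at -1.57 and Rasgrp1 at 1.16.

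Sums of some cell type marker lists also differed between the groups, and their part in the values above was not tested. Markers of fibroblasts and pericytes (8 genes) summed to 4385 to 12606 normalized counts in knockout and 15520 to 33679 in WT, with 8 of 8 lower in the mean, 5 called by DESeq2 and 1 gene at 0 in some library. Markers of endothelial cells (7 genes) summed to 3731 to 9392 in knockout and 8586 to 15315 in WT, with 6 of 7 lower, and proximal tubule markers (7 genes) to 54662 to 132630 in knockout and 42480 to 77415 in WT, with 6 of 7 higher. Markers of T and NK cells (6 genes) summed to only 61.7 to 102 in knockout and 37.5 to 51.8 in WT, with 3 of 6 higher, 3 lower and 3 at 0 in some library. Proliferation markers (5 genes) summed to 239 to 528 in knockout and 906 to 1229 in WT, with 5 of 5 lower and 4 called by DESeq2. DESeq2 also called 1 of 7 macrophage markers, and it called 1.95% of all genes it tested. In limma 0 genes of any marker list passed the threshold. The sums of the endothelial, proximal tubule, podocyte, collecting duct, thick limb with distal tubule, neutrophil, macrophage, B cell, erythrocyte and fat cell lists overlapped between the groups.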

How the data were processed

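The members and gene lists were chosen with earlier results of these data known. The authors deposited a normalized signal for every gene. Within 0.001 reads, 100% of values in a library were whole multiples of 1 step, so each is a number of reads divided by that library's size factor (0.879 to 1.20), and whole reads were recovered. Gene length is as deposited. Per the submitters' processing notes the build was mm10. The sources used here do not give the aligner, counter, annotation release or use of strand.

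Samples were grouped by title, and libraries titled IRI without a genotype were taken as WT. Genes with a mean of at least 1 were tested with limma 3.58.1 (trend, robust) on log2(value + 1), in R 4.3.3, which understates the change of low genes. Named genes are the 7 members, Cxcr2, the 3 of smallest p in each pathway list and the 3 most like each member by Pearson r among genes with a mean of at least 50 whose symbol is neither Gm plus digits nor a Rik name. Grb2, Sos1, Mapk13 and Slc3a2 were named after their values were seen, and Ndufb2 and Syn1 for overlapping a member. Alternatives were edgeR 4.0.16 (quasi-likelihood) and DESeq2 1.42.0 on recovered reads, other pseudocounts, filters and scalings, the replicate number as a block, and leaving out each library. The steps were tested on simulated data whose added changes were larger than any member's fold change and which held no outlying library. That test does not show how well changes of the members' size are found. All pairs of libraries differed beyond counting noise (chi-square over its degrees of freedom 31.1 to 162). Shared stretches were sought with blastn 2.17.0 in GENCODE M21 transcripts. Marker lists were summed per library.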

Additional observations from a re-analysis of the deposited data

How the results depend on the processing

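Each member's fold change was recomputed in 15 other settings, 105 values in all, and none passed the threshold of its test. Of these, 8 changed sign. Outside the settings that leave out a library this was Mapk3 with total-read scaling (-0.041). Over the settings that leave out 1 library, the log2 fold change ran from -0.13 to 0.057 for Hras, from -0.28 to 0.12 for Nras, from 0.11 to 0.29 for Araf, from 0.15 to 0.29 for Braf, from -0.024 to 0.27 for Map2k1, from -0.10 to 0.12 for Map2k2 and from -0.045 to 0.19 for Mapk3. The log2 ratios ran from -0.25 to 0.20 for Hras to Nras, from -0.18 to 0.14 for Araf to Braf and from -0.058 to 0.34 for Map2k1 to Map2k2. The number of members past the threshold was 0 in every setting run. Total-read scaling moved the median log2 fold change of all genes to -0.091. The count over all genes was 1 and became 5 with a pseudocount of 5, 5 without the filter on low values, 4 with TMM scaling, 4 with total-read scaling, 316 with DESeq2 and 1 to 6 with a library left out (6 without knockout library 1 and 3 without knockout library 3). The cause was not tested. Pathway genes past the threshold were 0, and 1 with DESeq2. Correlations of deviations from the group means were 0.067, -0.15 and 0.12 for same-numbered libraries. Those of differently numbered libraries ran from -0.23 to 0.20. Deviations from a mean of 3 libraries are tied to one another, so these values cannot show whether the replicate numbers pair the libraries. With the replicate number as a block, limma called 16 genes, 0 members and 0 pathway genes. The paired differences of the ratios were 0.035, -0.044 and 0.13. With 490 to 3873 reads per member, depth limits these values less than the spread between libraries does.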
